A study of Mus musculus with 24 samples.

Results

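Lungs of mice that were irradiated and received Ly and Imatinib (IR+Ly+Imatinib) are compared here with lungs of mice that received the same drug pair without irradiation (Ly+Imatinib). The arrays were chosen by their titles, and 4 of the 24 arrays of the series belong to the comparison, 2 in each group. All 4 carry RNA of whole shock-frozen mouse lung sampled at day 24 after irradiation, both groups received both drugs, and the labels call the 2 arrays of a group biological replicates. The labels state no genotype, strain, age, radiation dose, drug dose or drug schedule. Imatinib blocks tyrosine kinases, among them ABL, KIT and the receptors of PDGF, and Ly is used as the labels name it. The study, which by its title blocked the TGF-beta and PDGF pathways together in lung fibrosis caused by radiation, also held lungs under Ly, Imatinib, Su, Ly+Su or no drug, each with irradiation (IR+Ly, IR+Imatinib, IR+Su, IR+Ly+Su and IR) and without it. 3 of these arms, no drug (IR against untreated), Imatinib and Ly+Su, serve below for a test of whether the irradiation difference depended on the drugs.

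Radiation injures lung through DNA breaks, which activate p53 and its target genes, among them the cell cycle inhibitor Cdkn1a and the cytokine Gdf15. Weeks to months later, injured mouse lung accumulates macrophages and lymphocytes and can lay down collagen. TGF-beta, which signals through receptor serine kinases and Smad proteins, and PDGF, which signals through receptor tyrosine kinases, both act on fibroblasts, the cells that make most of that matrix.

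Each value is a level, the log2 signal of a gene's probe minus the log2 of the 75th percentile of its array, so that 0 is the level of a fairly bright probe and each unit is a doubling. Of 27401 genes on the array, 20409 entered the test, those whose probe the scanner software marked well above background on both arrays of some group. A gene is said to have risen or fallen when its adjusted p in the limma fit over all 24 arrays was under 0.05. The lung markers were high on all 4 arrays. Sftpc, the alveolar type II surfactant protein, had levels of 8.59 and 8.62 in IR+Ly+Imatinib lungs, against 8.75 and 8.83 in Ly+Imatinib lungs. Scgb1a1, the club cell secretoglobin, had levels of 7.80 and 8.11 in IR+Ly+Imatinib lungs, against 8.21 and 8.23 in Ly+Imatinib lungs. Both genes were slightly higher on the unirradiated arrays. In tissue RNA, fewer cells of a type and less RNA per cell cannot be told apart.

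The 2 irradiated arrays were not of equal quality. The scanner software marked 330 spots of IR+Ly+Imatinib 1 and 80 spots of IR+Ly+Imatinib 2 as outliers, against 17 and 14 spots on the 2 Ly+Imatinib arrays. On IR+Ly+Imatinib 1, 254 of the 330 marked spots lay in 1 region at the edge, rows 267 to 425 and columns 1 to 21 of a grid of 532 rows and 85 columns, which holds 7.35% of all spots. The region was taken as the 6 of 80 equal blocks with more than 8 outlier spots; blocks inside it held at least 11 and blocks outside it at most 6. Spots of the region that were not marked differed as well. Of 2622 such spots, 28.8% were more than 1 log2 unit brighter on IR+Ly+Imatinib 1 than on IR+Ly+Imatinib 2, against 1.3% of 31437 spots outside the region. Among spots of the region below the median signal of IR+Ly+Imatinib 2 the share was 50.2%. On the 2 Ly+Imatinib arrays, the corresponding shares for these places were 2.75% inside and 2.28% outside. The region covers 1525 of the tested genes, of which 3.02% rose and 1.25% fell, against 2.32% and 1.05% of genes outside it. Genes in the region are named as such below, with their value from a fit that leaves the region out where a probe remained.

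**Figure D1:**
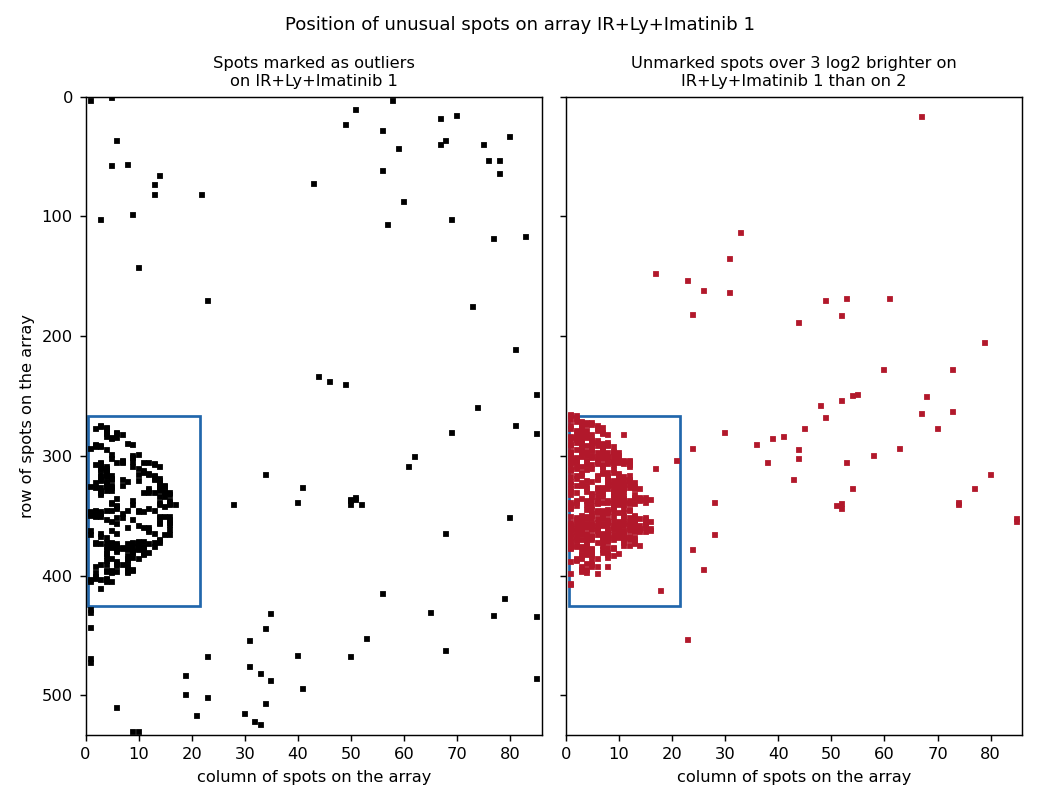
Position of spots by column (x axis) and row (y axis) on array IR+Ly+Imatinib 1, with the region outlined in blue. Left, the spots marked as outliers; right, the unmarked spots more than 3 log2 units brighter than on IR+Ly+Imatinib 2, of which 510 lay inside the region and 54 outside.

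Slide and irradiation could not be separated. The 24 arrays lay on 6 slides, and none held both irradiated and unirradiated lungs: the IR+Ly+Imatinib arrays shared slide 6 with IR+Ly+Su, and the Ly+Imatinib arrays shared slide 3 with Ly+Su. The share of spots well above background was 68.6% and 78.5% on the IR+Ly+Imatinib arrays, 66.1% and 63.9% on the Ly+Imatinib arrays and 62.0% to 77.9% on the other 20. The median signal of negative control spots was 7.8 on IR+Ly+Imatinib 1 and 2.9 on IR+Ly+Imatinib 2. It was 7.8 and 8.9 on the Ly+Imatinib arrays and 2.6 and 3 on the IR+Ly+Su arrays. Levels at background can thus differ between arrays: Zfp42, at background on both IR+Ly+Imatinib arrays, had -7.85 and -9.18 there. Levels of all genes correlated at 0.975 between the 2 IR+Ly+Imatinib arrays, with 1385 genes apart by more than 1 log2 unit. Between the 2 Ly+Imatinib arrays the correlation was 0.991, with 693 such genes.

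After irradiation under both drugs, 484 genes were higher (2.37% of those tested) and 217 were lower (1.06%), 701 genes in all (3.43%), and 4015 had an unadjusted p under 0.05. Over all tested genes the median log2 difference was 0.00, and 10247 of them lay above 0. The median size was 1.29 log2 units among genes that rose and 0.62 among genes that fell, and 338 of the higher genes and 44 of the lower ones changed by more than 1 unit. Of the 484, 335 were well above background on all 4 arrays and 98 were at background on both Ly+Imatinib arrays. Of the 217, 200 were well above background on all 4 arrays and 9 were at background on both IR+Ly+Imatinib arrays. The arrays of the groups did not overlap for any of the 701 genes. Among all tested genes, the irradiated arrays lay above both unirradiated ones for 28.3% and below both for 29.6%.

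The number of calls turned on single arrays. A fit without IR+Ly+Imatinib 1 called 214 genes, and 1 without IR+Ly+Imatinib 2 called 1242. Without Ly+Imatinib 1, 81 genes passed, and without Ly+Imatinib 2, 169 did. In these fits the lone array of a group is assumed to vary like the arrays of the other groups. Without the edge region, 646 genes passed, 639 of them among the 701. In all, 66 genes kept their call in each of the 4 fits with 1 array left out, and 60 of these kept it without the region too, 57 of them higher and 3 lower.

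**Figure D2:**
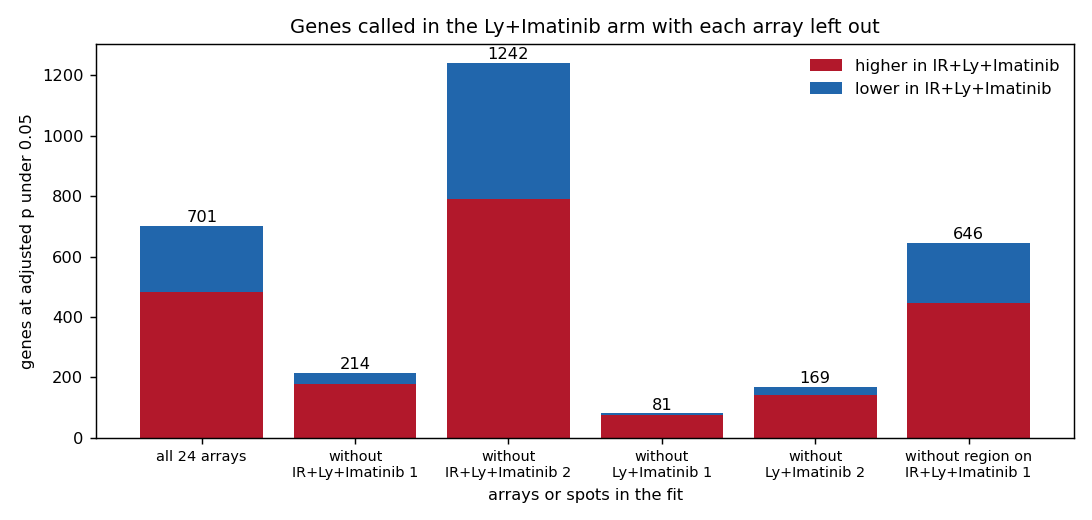
Number of genes at adjusted p under 0.05 (y axis), higher in IR+Ly+Imatinib in red and lower in blue, with all 24 arrays, with each of the 4 arrays left out, and without the edge region of IR+Ly+Imatinib 1. Counts run from 81 without Ly+Imatinib 1 to 1242 without IR+Ly+Imatinib 2, beside 701 with all arrays.

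Of 769 tested genes on the gene lists described next, 37 were higher (4.81%, against 2.37% of all tested genes) and 7 were lower (0.91%, against 1.06%).

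Targets of p53 were among the genes that rose. Of 29 tested targets, 6 were higher and 1 was lower, and the median log2 difference of the list was 0.20. Gdf15, a stress-induced cytokine of the TGF-beta superfamily, had levels of 0.53 and 1.22 in IR+Ly+Imatinib lungs, against -1.93 and -1.22 in Ly+Imatinib lungs. Psrc1, which encodes a spindle-associated protein, had levels of 0.50 and 0.34 in IR+Ly+Imatinib lungs, against -1.90 and -1.44 in Ly+Imatinib lungs. Both irradiated arrays of these 2 genes lay well above both unirradiated ones. The log2 difference of Gdf15 was 2.45 ± 0.30 (SE, adjusted p = 0.00064) and that of Psrc1 was 2.09 ± 0.32 (adjusted p = 0.00392). Eda2r, a receptor of the tumour necrosis factor family, had levels of -2.52 and -2.47 in IR+Ly+Imatinib lungs, against -4.90 and -3.77 in Ly+Imatinib lungs. Cdkn1a, the inhibitor of cyclin-dependent kinases also called p21, had levels of 1.96 and 1.74 in IR+Ly+Imatinib lungs, against -0.49 and 0.54 in Ly+Imatinib lungs. In both genes the irradiated arrays lay close together and the unirradiated arrays about 1 unit apart, with no overlap. Eda2r rose by 1.84 ± 0.34 (adjusted p = 0.0101) and Cdkn1a by 1.82 ± 0.35 (adjusted p = 0.0142). Zmat3, a zinc finger RNA-binding protein, rose by 1.10 log2 units and Phlda3, an inhibitor of AKT, by 0.84, while Dcxr, a carbonyl reductase, fell by 0.42. Other p53 targets did not pass the threshold: the log2 difference was 0.24 for the p53 ubiquitin ligase Mdm2, 0.36 for the apoptosis gene Bax, in the edge region, and -0.61 for Sesn1 (adjusted p = 0.052). As higher, 2 members of the list passed without IR+Ly+Imatinib 1, and without Ly+Imatinib 2, 5 did, and without Ly+Imatinib 1, 1 did, which was Gdf15.

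**Figure D3:**
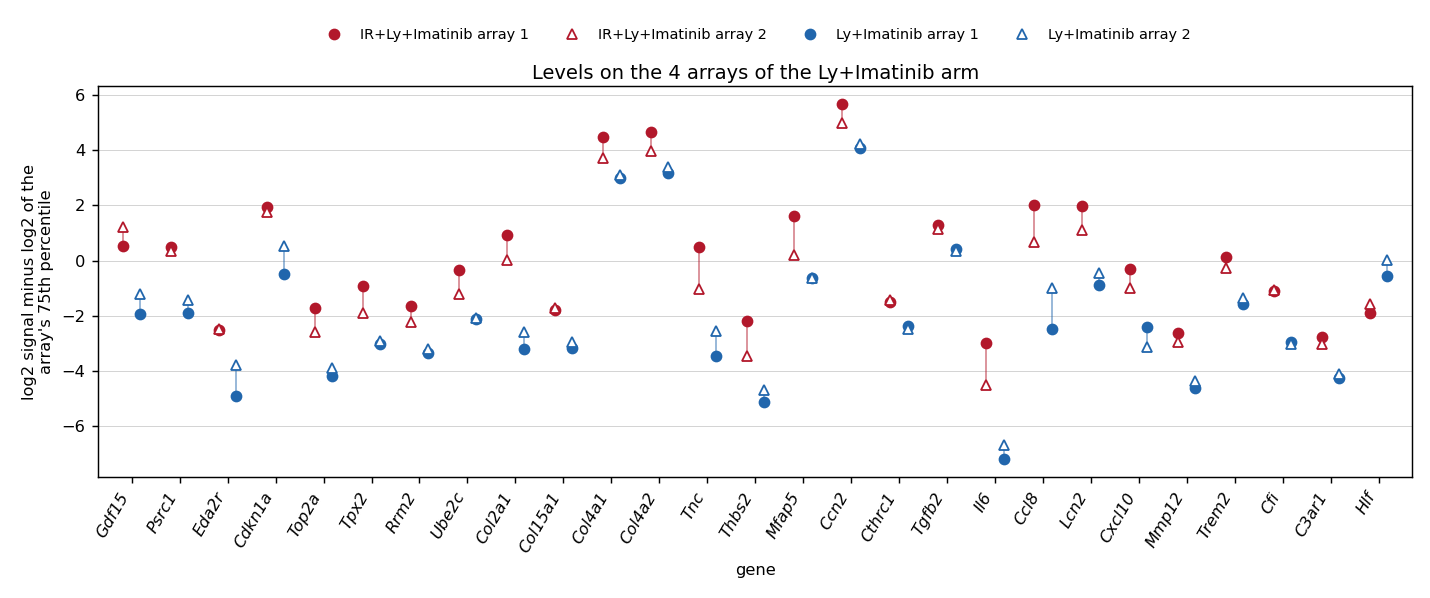
Level (log2 signal minus log2 of the array's 75th percentile, y axis) of 27 list members that passed the threshold (x axis), on the 2 IR+Ly+Imatinib arrays (red) and the 2 Ly+Imatinib arrays (blue); filled circles are array 1 and open triangles array 2 of each group. The arrays of the groups do not overlap for any gene shown, and the gap between the 2 irradiated arrays is wide for Tnc, Thbs2, Mfap5, Ccl8 and Il6 and narrow for Eda2r, Cthrc1 and Cfi.

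Genes of the cell cycle had the largest median among the 43 lists. Of 35 tested proliferation genes, 5 were higher and none was lower, 34 had a log2 difference above 0, and the median was 1.11. The mean level of the list was -0.32 on IR+Ly+Imatinib 1 and -1.06 on IR+Ly+Imatinib 2, against -1.74 and -1.73 on the Ly+Imatinib arrays. Both irradiated means lay above both unirradiated ones, and every one of the 35 genes was higher on IR+Ly+Imatinib 1 than on IR+Ly+Imatinib 2, where 51.8% of all tested genes were. For 30 of the 35 the irradiated arrays lay above both unirradiated ones, against 28.3% of all tested genes.

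The windows from 250 bases before to 50 bases after the transcription start are shown for the 4 of the 5 genes that rose with an entry in the promoter table, to set out CCAAT and TTTGAA, motifs found in many cell cycle promoters, of which each window holds at least 1. RefSeq, build GRCm38.p6, is the source; each runs in the direction of transcription, and capitals mark CCAAT and TTTGAA on either strand, so ATTGG and TTCAAA are capitalised too.
Top2a, chr11:99024140-99024439, minus strand: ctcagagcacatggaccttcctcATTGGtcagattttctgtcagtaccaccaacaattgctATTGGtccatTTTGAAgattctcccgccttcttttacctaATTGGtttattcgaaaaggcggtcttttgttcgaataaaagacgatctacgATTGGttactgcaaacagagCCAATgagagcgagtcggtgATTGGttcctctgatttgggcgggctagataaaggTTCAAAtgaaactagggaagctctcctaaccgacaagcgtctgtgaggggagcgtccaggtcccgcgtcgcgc
Rrm2, chr12:24708004-24708303, plus strand: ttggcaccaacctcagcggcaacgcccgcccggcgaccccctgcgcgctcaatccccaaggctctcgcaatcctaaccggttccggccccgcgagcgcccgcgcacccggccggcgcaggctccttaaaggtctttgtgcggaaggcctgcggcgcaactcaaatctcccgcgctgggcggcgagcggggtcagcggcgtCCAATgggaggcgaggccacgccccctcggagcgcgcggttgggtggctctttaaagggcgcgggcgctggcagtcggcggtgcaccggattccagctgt
Ube2c, chr2:164769679-164769978, plus strand: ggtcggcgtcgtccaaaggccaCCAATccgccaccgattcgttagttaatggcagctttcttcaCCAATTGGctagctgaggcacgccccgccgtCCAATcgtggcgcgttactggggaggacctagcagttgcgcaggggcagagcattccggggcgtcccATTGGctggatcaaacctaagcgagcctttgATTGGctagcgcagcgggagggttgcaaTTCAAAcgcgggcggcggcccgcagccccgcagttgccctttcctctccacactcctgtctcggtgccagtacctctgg
Mcm5, chr8:75109259-75109558, plus strand: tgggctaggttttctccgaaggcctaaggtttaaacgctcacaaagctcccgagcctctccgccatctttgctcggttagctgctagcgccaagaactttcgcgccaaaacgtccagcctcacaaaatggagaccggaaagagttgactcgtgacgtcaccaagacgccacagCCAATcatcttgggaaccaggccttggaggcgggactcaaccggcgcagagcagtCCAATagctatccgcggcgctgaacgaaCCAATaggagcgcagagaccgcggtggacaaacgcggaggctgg
Of the 35 list members, 28 matched an entry of the RefSeq promoter table. CCAAT was found in 22 of the 28 windows (78.6%), against 10248 of 27025 windows of all genes (37.9%). TTTGAA was found in 14 of the 28 (50%), against 4893 of all windows (18.1%), and the 2 motifs did not overlap each other in the windows shown, though 2 of the CCAAT matches in Ube2c overlap. Top2a and Ube2c held 6 CCAAT each, Mcm5 held 3 and Rrm2 held 1. TTTGAA occurred at 2 places in Top2a, at 1 in Ube2c and not in Mcm5 or Rrm2. Of the 3 other motifs counted, GCGTG was in 18 of the 28 windows (64.3%, against 32.5% of all windows), GAANNTTC in 5 (17.9%, against 7.95%) and CACGTG in 1 (3.57%, against 7.24%), all on either strand. High shares were not particular to proliferation genes: CCAAT was also in 12 of 16 windows of clock genes (75%). A match describes these letters only and says nothing of binding in these lungs.

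Top2a, the DNA topoisomerase of dividing cells, had levels of -1.72 and -2.57 in IR+Ly+Imatinib lungs, against -4.18 and -3.88 in Ly+Imatinib lungs. Ube2c, the ubiquitin-conjugating enzyme that works with the anaphase-promoting complex, had levels of -0.36 and -1.20 in IR+Ly+Imatinib lungs, against -2.12 and -2.09 in Ly+Imatinib lungs. In both genes IR+Ly+Imatinib 1 was the highest array and the unirradiated arrays lay close together. Top2a rose by 1.88 ± 0.32 log2 units (adjusted p = 0.0072) and Ube2c by 1.32 ± 0.29 (adjusted p = 0.0293). The microtubule-binding spindle factor Tpx2 rose by 1.56 ± 0.39, the ribonucleotide reductase subunit Rrm2 by 1.34 ± 0.31 and the replication helicase subunit Mcm5 by 0.79 ± 0.20, with adjusted p of 0.0439, 0.0345 and 0.0472. Mki67, the common marker of cycling cells, missed the threshold at 1.49 ± 0.40 (adjusted p = 0.0546), with levels of 1.68 and 0.84 in IR+Ly+Imatinib lungs, against -0.21 and -0.26 in Ly+Imatinib lungs. The number of members that passed followed the arrays: 18 without IR+Ly+Imatinib 2, none without IR+Ly+Imatinib 1 or without Ly+Imatinib 1, and 1 without Ly+Imatinib 2.

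Collagens tended to be higher after irradiation, but few passed the threshold. Of 17 tested fibrillar and other collagens, 2 were higher and none was lower, 16 lay above 0, and the median log2 difference was 0.62. Col2a1, the collagen of cartilage, had levels of 0.92 and 0.00 in IR+Ly+Imatinib lungs, against -3.20 and -2.61 in Ly+Imatinib lungs. Col15a1, a collagen of the basement membrane zone, had levels of -1.80 and -1.72 in IR+Ly+Imatinib lungs, against -3.17 and -2.94 in Ly+Imatinib lungs. The arrays of the groups were far apart in Col2a1, and in Col15a1 the 2 irradiated arrays nearly coincided. Col2a1 rose by 3.36 ± 0.46 (adjusted p = 0.0016) and Col15a1 by 1.29 ± 0.20 (adjusted p = 0.00352). A second probe of Col2a1, dimmer over the 24 arrays, differed by 0.12, so the probes disagree. Col1a1, the chain of the main fibrillar collagen of scars, had levels of 5.32 and 4.10 in IR+Ly+Imatinib lungs, against 3.09 and 3.47 in Ly+Imatinib lungs. Col3a1, its partner in young scar tissue, had levels of 5.39 and 4.45 in IR+Ly+Imatinib lungs, against 3.49 and 3.91 in Ly+Imatinib lungs. Neither gene overlapped between groups, yet most of the gap came with IR+Ly+Imatinib 1, and neither passed, at 1.43 ± 0.39 (adjusted p = 0.0584) for Col1a1 and 1.22 ± 0.37 (adjusted p = 0.0845) for Col3a1. In all, 7 collagens passed without IR+Ly+Imatinib 2; without IR+Ly+Imatinib 1 or without Ly+Imatinib 2, 2 did, and without Ly+Imatinib 1, 1 did.

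Of 17 basement membrane genes, 2 were higher, 15 lay above 0 and the median was 0.41. The 2 were the paired type IV collagen chains. Col4a1 had levels of 4.49 and 3.70 in IR+Ly+Imatinib lungs, against 2.97 and 3.09 in Ly+Imatinib lungs, and Col4a2 had levels of 4.66 and 3.96 in IR+Ly+Imatinib lungs, against 3.17 and 3.39 in Ly+Imatinib lungs. In both, IR+Ly+Imatinib 1 was the highest of the 4 arrays and the groups did not overlap. Col4a1 rose by 1.07 ± 0.27 (adjusted p = 0.0476) and Col4a2 by 1.03 ± 0.24 (adjusted p = 0.0371). Neither call survived without IR+Ly+Imatinib 1 or without either Ly+Imatinib array, and without IR+Ly+Imatinib 2, 3 members were higher and 1 was lower.

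Of 21 matrix glycoproteins and elastic fibre genes, 3 were higher, 18 lay above 0 and the median was 0.77. The mean level of the list was 1.97 on IR+Ly+Imatinib 1 and 0.98 on IR+Ly+Imatinib 2, against 0.45 and 0.62 on the Ly+Imatinib arrays. Tnc, the wound-associated glycoprotein tenascin C, had levels of 0.48 and -1.03 in IR+Ly+Imatinib lungs, against -3.46 and -2.55 in Ly+Imatinib lungs. Thbs2, thrombospondin 2, had levels of -2.19 and -3.45 in IR+Ly+Imatinib lungs, against -5.14 and -4.68 in Ly+Imatinib lungs. Both irradiated arrays lay above both unirradiated ones, with more than 1 unit between the irradiated arrays in each gene. Tnc rose by 2.73 ± 0.62 (adjusted p = 0.0325) and Thbs2 by 2.09 ± 0.42 (adjusted p = 0.0173). The probe of Tnc lies in the edge region, and without the region the difference was 3.63 (adjusted p = 0.0122). The microfibril protein Mfap5 rose by 1.54 ± 0.40 (adjusted p = 0.048). Fn1, fibronectin, had levels of 3.23 and 2.17 in IR+Ly+Imatinib lungs, against 1.55 and 1.41 in Ly+Imatinib lungs, and missed the threshold at 1.22 ± 0.37 (adjusted p = 0.0835; 1.22 and 0.0848 without the edge region). Elastin, Eln, had levels of 3.82 and 1.35 in IR+Ly+Imatinib lungs, against -0.05 and 0.27 in Ly+Imatinib lungs (adjusted p = 0.0667). In a fit without IR+Ly+Imatinib 2, 9 members were higher and 1 was lower, and none passed without IR+Ly+Imatinib 1 or without either Ly+Imatinib array.

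Among 24 enzymes of the matrix and their inhibitors, 1 was higher and the median was 0.52. Mmp12, the macrophage elastase, had levels of -2.64 and -2.96 in IR+Ly+Imatinib lungs, against -4.63 and -4.38 in Ly+Imatinib lungs. The groups lay apart, and Mmp12 rose by 1.71 ± 0.42 (adjusted p = 0.0439). Timp1, an inhibitor of matrix metalloproteinases, differed by 1.95 ± 0.56 without passing (adjusted p = 0.0701). The number of members passing was 3 without IR+Ly+Imatinib 2 and none without any 1 of the other 3 arrays.

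In the TGF-beta pathway itself, 1 of 25 ligands, receptors, Smads and regulators was higher and 1 was lower, and the median was 0.18. Both irradiated arrays lay above both unirradiated ones for 16 of the 25, against 28.3% of all tested genes, and 9 had an unadjusted p under 0.05. Among ligands, Tgfb2 had levels of 1.29 and 1.13 in IR+Ly+Imatinib lungs, against 0.40 and 0.36 in Ly+Imatinib lungs, and rose by 0.83 ± 0.13 (adjusted p = 0.00515). The irradiated arrays lay close together and well above the unirradiated ones. The most studied ligand in fibrosis, Tgfb1, in the edge region, had levels of 0.45 and 0.27 in IR+Ly+Imatinib lungs, against 0.36 and 0.14 in Ly+Imatinib lungs, and the groups overlapped. Among receptors, the log2 difference of Tgfbr1 was 0.33 (adjusted p = 0.378) and that of Tgfbr2 was 0.27 (adjusted p = 0.319); a second probe of Tgfbr1 differed by -0.48. Smad4, the Smad shared by the TGF-beta and BMP branches, had levels of 2.88 and 2.90 in IR+Ly+Imatinib lungs, against 3.33 and 3.23 in Ly+Imatinib lungs, and fell by 0.39 ± 0.10 (adjusted p = 0.0427), while its second probe differed by 0.14, the other way. The call of Tgfb2 was lost without IR+Ly+Imatinib 1 or Ly+Imatinib 1, and that of Smad4 without any 1 of the 4 arrays.

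Of 24 genes known to respond to TGF-beta, 3 were higher, 21 lay above 0 and the median was 0.40. Ccn2, connective tissue growth factor, had levels of 5.67 and 4.99 in IR+Ly+Imatinib lungs, against 4.08 and 4.23 in Ly+Imatinib lungs. Cthrc1, a secreted protein of activated fibroblasts, had levels of -1.49 and -1.42 in IR+Ly+Imatinib lungs, against -2.38 and -2.49 in Ly+Imatinib lungs. Both genes were higher on both irradiated arrays than on either unirradiated array. Ccn2 rose by 1.18 ± 0.26 (adjusted p = 0.0289) and Cthrc1 by 0.98 ± 0.18 (adjusted p = 0.0106). A second probe of Cthrc1, in the edge region, differed by -0.41. Acta2, smooth muscle actin and a sign of myofibroblasts, differed by 0.40 (adjusted p = 0.409), and its probe lies in the edge region. None of the 3 calls held without IR+Ly+Imatinib 1 or without either Ly+Imatinib array, and without IR+Ly+Imatinib 2, 5 members were higher and 1 was lower.

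No gene of the PDGF family or of the kinases that imatinib binds passed the threshold among 16 tested, with 8 above 0 and a median of -0.02; 1 member had an unadjusted p under 0.05. Pdgfa, a ligand, had levels of 5.35 and 5.30 in IR+Ly+Imatinib lungs, against 5.47 and 5.52 in Ly+Imatinib lungs. Pdgfrb, the receptor of pericytes and fibroblasts, had levels of 3.67 and 3.68 in IR+Ly+Imatinib lungs, against 3.91 and 3.83 in Ly+Imatinib lungs. Both were slightly lower on the irradiated arrays, by 0.18 and 0.20 log2 units in size, and neither passed (adjusted p of 0.434 and 0.499); a second probe of Pdgfa differed by 0.25. Pdgfra, the receptor of alveolar fibroblasts, in the edge region, had levels of 0.98 and 1.32 in IR+Ly+Imatinib lungs, against 1.71 and 1.48 in Ly+Imatinib lungs. Kit, the stem cell factor receptor, had levels of 2.03 and 1.14 in IR+Ly+Imatinib lungs, against 2.09 and 2.11 in Ly+Imatinib lungs, and only IR+Ly+Imatinib 2 stood apart. Csf1r, the macrophage growth factor receptor, in the edge region, had levels of 2.21 and 2.12 in IR+Ly+Imatinib lungs, against 2.67 and 2.11 in Ly+Imatinib lungs, where array 1 alone was higher. Pdgfb, the ligand made by endothelium and platelets, had different values inside and outside the edge region. Its probe there gave levels of -2.19 and 0.80 in IR+Ly+Imatinib lungs, against 0.62 and 0.64 in Ly+Imatinib lungs, for a log2 difference of -1.32 ± 0.69 (adjusted p = 0.315). Without the region, another probe stood for the gene, the difference was 0.69 and the adjusted p was 0.0377.

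In the neighbouring VEGF and angiopoietin family, 1 of 14 genes was lower and none was higher. That was Vegfb, with levels of 2.41 and 2.55 in IR+Ly+Imatinib lungs, against 2.98 and 3.08 in Ly+Imatinib lungs and a fall by 0.55 ± 0.12 (adjusted p = 0.0241), a call that held without IR+Ly+Imatinib 2 and was lost without any 1 of the other 3 arrays. Its second probe differed by -0.17. Of 21 fibroblast and myofibroblast genes, 2 were higher, Cthrc1 and the hyaluronan synthase Has2, and the median was 0.08. Has2 had levels of -1.46 and -3.37 in IR+Ly+Imatinib lungs, against -5.40 and -5.29 in Ly+Imatinib lungs, where it was not well above background. Where 1 group is at background, a lower bound of the fold is given, the mean of the bright group against, on each dim array, the higher of the lowest signal marked well above background and the gene's own signal. Has2 was at least 7.62-fold higher (adjusted p = 0.0453); it lies in the edge region, and without the region another probe passed too (adjusted p = 0.0286). Without IR+Ly+Imatinib 1 or either Ly+Imatinib array, neither fibroblast gene passed.

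Inflammatory signals were higher in part. Of 28 tested cytokines and chemokines, 4 were higher and none was lower, 24 lay above 0 and the median was 0.84. Ccl8, a monocyte chemoattractant, had levels of 2.01 and 0.65 in IR+Ly+Imatinib lungs, against -2.47 and -1.0 in Ly+Imatinib lungs. Cxcl10, an interferon-induced chemokine for T cells, had levels of -0.29 and -0.99 in IR+Ly+Imatinib lungs, against -2.39 and -3.15 in Ly+Imatinib lungs. In both the groups lay more than 1 unit apart, and the arrays within a group differed by 0.7 to 1.5 units. Ccl8 rose by 3.07 ± 0.76 (adjusted p = 0.0436) and Cxcl10 by 2.13 ± 0.50 (adjusted p = 0.0368). Il6, in the edge region, was not well above background in Ly+Imatinib lungs and was at least 3.05-fold higher after irradiation (adjusted p = 0.0434); it also passed without the region (adjusted p = 0.0436). Lcn2, the neutrophil and epithelial protein lipocalin 2, rose by 2.21 ± 0.52 (adjusted p = 0.0358), but its only probe lies in the edge region, and without IR+Ly+Imatinib 1 the difference was 1.77 (adjusted p = 0.279). Cxcl9, a relative of Cxcl10, just missed the threshold at 2.66 ± 0.69 (adjusted p = 0.0509). None of the 4 passed without IR+Ly+Imatinib 1 or without either Ly+Imatinib array, while 7 members did without IR+Ly+Imatinib 2.

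Of 19 complement genes, 2 were higher, 17 lay above 0 and the median was 0.67. Cfi, the protease that degrades C3b, had levels of -1.11 and -1.06 in IR+Ly+Imatinib lungs, against -2.94 and -3.02 in Ly+Imatinib lungs, and rose by 1.89 ± 0.34 (adjusted p = 0.0100). The 2 arrays of each group lay within 0.1 unit of each other. C3ar1, the receptor of the C3a fragment, rose by 1.29 ± 0.31 (adjusted p = 0.0407). The complement list had 5 genes passing without IR+Ly+Imatinib 2, and without Ly+Imatinib 2, 1 did, but none passed without IR+Ly+Imatinib 1 or Ly+Imatinib 1. Among 34 interferon response and antigen presentation genes, Cxcl10 alone passed, and the median was 0.27.

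Macrophage markers differed less. Of 27 macrophage and monocyte genes, 1 was higher, 22 lay above 0 and the median was 0.31. Ms4a7, a membrane protein of macrophages, had levels of 0.92 and 0.24 in IR+Ly+Imatinib lungs, against -0.91 and -0.97 in Ly+Imatinib lungs, and rose by 1.52 ± 0.39 (adjusted p = 0.0480). The broad markers Cd68 and Adgre1 differed by 0.50 and 0.29 without passing. Of 20 genes of lipid-handling macrophages, 2 were higher, Mmp12 and Trem2, 18 lay above 0 and the median was 0.25. Trem2, a lipid-sensing receptor, had levels of 0.13 and -0.28 in IR+Ly+Imatinib lungs, against -1.59 and -1.37 in Ly+Imatinib lungs, and rose by 1.40 ± 0.35 (adjusted p = 0.0473). Spp1, osteopontin, had levels of 3.92 and 4.59 in IR+Ly+Imatinib lungs, against 4.31 and 4.0 in Ly+Imatinib lungs. Its groups overlapped, with a difference of 0.10 ± 0.27 (adjusted p = 0.901). None of 15 genes of alternative macrophage activation passed, with a median of 0.11. Ms4a7, Mmp12 and Trem2 lost their calls without IR+Ly+Imatinib 1 and without either Ly+Imatinib array, and Mmp12 also without IR+Ly+Imatinib 2.

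No lymphocyte gene passed. None of 29 T and NK cell genes passed, 3 lay above 0, the median was -0.56, and 6 had an unadjusted p under 0.05. For 16 of the 29 both irradiated arrays lay below both unirradiated ones, where 29.6% of all tested genes did. The mean level of the list was -1.90 and -1.47 in IR+Ly+Imatinib lungs, against -0.94 and -1.42 in Ly+Imatinib lungs, so that IR+Ly+Imatinib 2 and Ly+Imatinib 2 nearly met. Lck, the T cell receptor kinase, had levels of -0.13 and -0.17 in IR+Ly+Imatinib lungs, against 0.65 and 0.12 in Ly+Imatinib lungs. None of 23 B and plasma cell genes passed either, with a median of -0.41 and 4 at an unadjusted p under 0.05. Their mean level was -0.78 and -0.14 in IR+Ly+Imatinib lungs, against 0.05 and -0.27 in Ly+Imatinib lungs, so the groups overlapped, and the median was -0.14 without IR+Ly+Imatinib 1. Both irradiated arrays lay below both unirradiated ones for 8 of the 23, near the share of 29.6% among all tested genes. Without IR+Ly+Imatinib 2, 2 T and NK cell genes and 1 B cell gene were lower.

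Mast cell genes split the irradiated arrays. Of 10 tested, 1 was higher, and the median was 0.96. The mean level of the list was -2.82 on IR+Ly+Imatinib 1 and -1.38 on IR+Ly+Imatinib 2, against -3.09 and -3.44 on the Ly+Imatinib arrays. Cpa3, carboxypeptidase A3 of mast cell granules, had levels of -3.50 and -0.57 in IR+Ly+Imatinib lungs, against -4.38 and -4.90 in Ly+Imatinib lungs. Mcpt4, a mast cell chymase, had levels of -2.92 and -0.70 in IR+Ly+Imatinib lungs, against -4.18 and -4.83 in Ly+Imatinib lungs. In both genes IR+Ly+Imatinib 2 was far above the other 3 arrays, and neither passed (adjusted p of 0.150 and 0.115). Hpgds, the prostaglandin D synthase, was even on both irradiated arrays and rose by 1.83 ± 0.40 (adjusted p = 0.0264), a call lost without IR+Ly+Imatinib 1 or either Ly+Imatinib array. Of 15 neutrophil genes, Lcn2 alone passed, and the median was -0.31.

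Epithelial and vascular markers gave no calls. No member was called among 16 alveolar type I, 18 alveolar type II, 19 club and goblet, 23 ciliated, 28 endothelial, 9 lymphatic or 14 mesothelial genes. Their median differences were -0.13, 0.21, -0.10, -0.29, -0.11, 0.07 and -0.13. At an unadjusted p under 0.05 by limma there were 6, 4, 7, 8, 5, 0 and 2, beside 4015 of all 20409 tested genes. In the club and goblet list, 7 of 19 genes were higher by more than 1 log2 unit, with differences from -0.69 to 3.6. For 12 of the 23 ciliated genes both irradiated arrays lay below both unirradiated ones, against 29.6% of all tested genes. In the ciliated list none of the 23 genes was higher on IR+Ly+Imatinib 1 than on IR+Ly+Imatinib 2, and 4 were called lower when IR+Ly+Imatinib 2 was left out. The mean level of ciliated genes was 0.25 and 0.79 in IR+Ly+Imatinib lungs, against 0.78 and 0.91 in Ly+Imatinib lungs. Cardiac muscle genes, which mouse pulmonary veins express, differed more between the 2 arrays of a group than between the groups. Their mean level was -3.10 and -1.23 in IR+Ly+Imatinib lungs, against -3.10 and -0.85 in Ly+Imatinib lungs. None of 16 passed (1 at an unadjusted p under 0.05).

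Of 25 genes associated with cell senescence, 6 were higher, 22 lay above 0 and the median was 0.67. Il6, Ccl8, Gdf15, Cdkn1a and Mmp12, named above on other lists, were among them. Cdkn2a, which encodes the inhibitor p16, had levels of -5.76 and -4.29 in IR+Ly+Imatinib lungs, against -6.70 and -6.43 in Ly+Imatinib lungs, and did not pass (adjusted p = 0.233). Without IR+Ly+Imatinib 1 or without Ly+Imatinib 1, 1 member passed, and without Ly+Imatinib 2, 2 did.

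Stress and clock genes gave single calls. Of 21 NRF2 targets, 2 were higher: Gclc, the catalytic subunit of glutathione synthesis, by 0.84 (adjusted p = 0.0164, its probes all in the edge region), and Pgd, a pentose phosphate dehydrogenase, by 0.55 (adjusted p = 0.0480; 0.33 by its second probe). Chac1, which degrades glutathione, had levels of -0.69 and -1.02 in IR+Ly+Imatinib lungs, against 0.08 and -0.10 in Ly+Imatinib lungs, and fell by 0.85 ± 0.16 (adjusted p = 0.0109), alone among 21 genes of the unfolded protein response. Hlf, a transcription factor with a daily rhythm, had levels of -1.88 and -1.59 in IR+Ly+Imatinib lungs, against -0.56 and 0.01 in Ly+Imatinib lungs, and fell by 1.46 ± 0.34 (adjusted p = 0.0347), alone among 19 clock genes, whose median was -0.22. Dbp, a close relative of Hlf, had levels of 3.82 and 4.24 in IR+Ly+Imatinib lungs, against 5.32 and 5.82 in Ly+Imatinib lungs, and did not pass (adjusted p = 0.0779). Spry4, a feedback inhibitor of receptor kinase signalling, rose by 2.46 ± 0.52 (adjusted p = 0.0221, well above background on 1 of the 2 Ly+Imatinib arrays), alone among 22 immediate early and feedback genes. Both Chac1 and Spry4 also separated slides 5 and 6 from slides 1 to 4, as set out below. Of 18 genes of plasminogen activation and coagulation, 2 rose, among them Anxa2, a plasminogen-binding annexin, by 0.36. Pdk1, a kinase that limits pyruvate oxidation, fell by 0.52, alone among 16 hypoxia genes, with -0.12 by its second probe, and the muscle myosin light chain Mylpf fell by 0.69, alone among 13 skeletal muscle genes. Of 16 glucocorticoid response genes, 2 rose, Lcn2 and Cdkn1a. Except for Chac1, which was lost only without Ly+Imatinib 1, and Cdkn1a, which kept its call without Ly+Imatinib 2, no gene of this paragraph passed without IR+Ly+Imatinib 1 or without either Ly+Imatinib array. None of 17 heat shock chaperones passed, but 15 of them lay below 0, with a median of -0.20 and 3 at an unadjusted p under 0.05. No member was called among 8 AhR targets, 21 cholesterol synthesis, 12 adipose and 8 erythroid genes, of which 2, 4, 3 and 0 had an unadjusted p under 0.05. Cyp1a1, the standard AhR target, had levels of -1.06 and -0.46 in IR+Ly+Imatinib lungs, against -0.65 and -0.42 in Ly+Imatinib lungs.

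**Figure D4:**
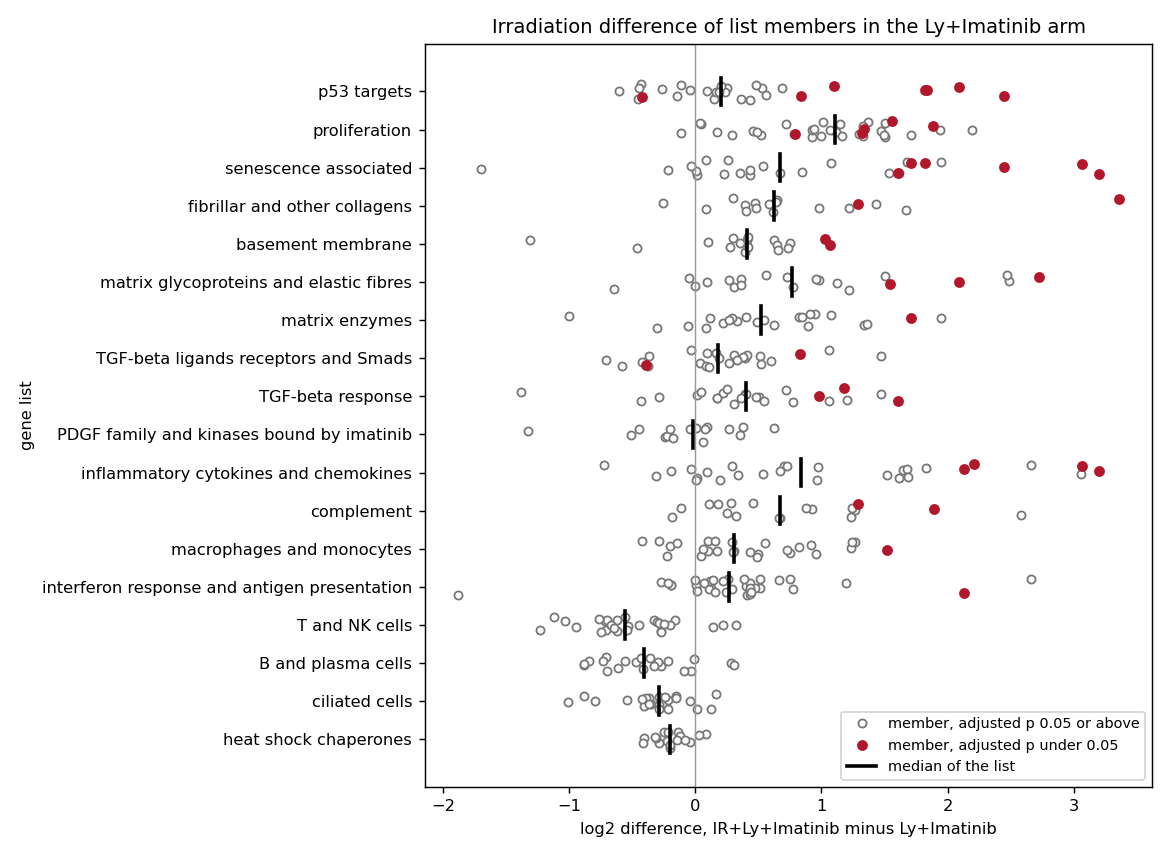
Log2 difference, IR+Ly+Imatinib minus Ly+Imatinib (x axis), of the tested members of 18 gene lists (y axis); red points passed the threshold, open points did not, and the black bar is the median of the list. Proliferation has its median at 1.11, with 34 of 35 members right of 0, while T and NK cells have theirs at -0.56, with 3 of 29 right of 0.

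The genes with the largest differences were often at background in one of the groups or in the edge region. Of the 12 named genes with the highest difference, 6 lie there: Gp2, Tfap2e, E130006D01Rik, Olfr131, Zfp811 and Lrrc15. Tfap2e, a transcription factor, had levels of 4.37 and 5.23 in IR+Ly+Imatinib lungs, against 0.29 and 0.56 in Ly+Imatinib lungs, a difference of 4.38 ± 0.66 (adjusted p = 0.0032) with both irradiated arrays far above both unirradiated ones. Zfp811 had levels of -0.93 and -5.58 in IR+Ly+Imatinib lungs, and E130006D01Rik of -1.18 and -5.59, so that the array with the region was far above its partner in both. For Lrrc15, a membrane protein of fibroblasts in scars and tumours, at background in Ly+Imatinib lungs and at least 4.93-fold higher after irradiation (adjusted p = 0.0226), another probe that stood for it without the region gave a log2 difference of -0.01 (adjusted p = 0.997). The remaining 5 of the 6 genes had no probe outside the region.

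Outside the region, Kng1, which encodes the precursor of bradykinin, had levels of -3.12 and -2.73 in IR+Ly+Imatinib lungs, against -7.41 and -7.18 in Ly+Imatinib lungs. It was at background without irradiation and at least 5.40-fold higher with it (adjusted p = 0.00123). In the same way Dlk1, an imprinted growth regulator, was at least 5.86-fold higher, Ankrd34b at least 4.40-fold, Gdf6, a bone morphogenetic protein, at least 3.68-fold, and Apon at least 2.24-fold. At the other end, Zfp42, a marker of pluripotent cells, was at least 3.12-fold lower, the germ cell transcription factor Mybl1 at least 5.19-fold, and the Y-linked helicase Ddx3y at least 2.96-fold, each at background on both irradiated arrays. Ddx3y had levels of -7.72 and -8.98 in IR+Ly+Imatinib lungs, against -4.49 and -4.95 in Ly+Imatinib lungs. Xist, the RNA of the inactive X chromosome, had levels of 3.66 and 3.73 in IR+Ly+Imatinib lungs, against 3.57 and 3.51 in Ly+Imatinib lungs. The signal of Ddx3y was dim on all 4 arrays and is not taken as expression of a Y-linked gene. Ackr4, a scavenging receptor for chemokines, was measured well on all 4 arrays, with levels of -2.69 and -2.42 in IR+Ly+Imatinib lungs, against -1.02 and -1.02 in Ly+Imatinib lungs, and fell by 1.54 ± 0.38 (adjusted p = 0.0447). Of the 69 named genes that passed with all arrays, Kng1, Col2a1, Gdf15, Tnfsf12 and Cep20 kept their call whichever of the 4 arrays was left out. Tfap2e had an adjusted p of 0.050 without Ly+Imatinib 1.

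The pair of irradiated arrays differed most from each other in genes of 2 kinds. A930019D19Rik and Dcn lie in the edge region and were higher on IR+Ly+Imatinib 1: Dcn, which encodes the proteoglycan decorin, had levels of -0.59 on IR+Ly+Imatinib 1 and -7.53 on IR+Ly+Imatinib 2. Sln, sarcolipin, and Mb, myoglobin, both genes of heart muscle, were higher on IR+Ly+Imatinib 2. Mb had levels of -7.42 and -0.44 in IR+Ly+Imatinib lungs, against -7.32 and -0.20 in Ly+Imatinib lungs, so the second array was high in both groups. In IR+Imatinib lungs it was the other way, with -1.67 on array 1 and -7.46 on array 2.

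Most genes that kept their call also separated slides. Over all tested genes, the 8 arrays of slides 5 and 6, which hold the 4 groups irradiated under Imatinib or Su, lay above the 16 arrays of slides 1 to 4 for 1.22% and below them for 1.33%. Of the 484 genes that rose, 136 (28.1%) had that pattern, and of the 217 that fell, 33 (15.2%) had it in the other direction. Of the 60 genes that kept their call in each of the 4 fits with 1 array left out and without the region, 41 had it as higher and 1 as lower (70%). On these genes the IR and IR+Ly arrays, on slide 4, lay on the same side of slides 5 and 6 as the unirradiated ones. They were not always within the unirradiated range. Pcbp1 had levels of -0.75 and -1.24 in IR lungs, and its highest unirradiated level was -1.39. E2f4 had levels of -4.12 and -4.08 in IR lungs, and its highest unirradiated level was -4.19. How often slide 4 lay within that range was not tested. The shares of all tested genes are no fair background for these counts. The slide pattern requires the IR+Ly+Imatinib arrays to lie apart from the Ly+Imatinib arrays, and every called gene already had that separation. Whether called genes had the slide pattern more often than this selection alone gives was not tested. Tnfsf12, a cytokine of the tumour necrosis factor family, had levels of -4.64 and -4.05 in IR+Ly+Imatinib lungs, against -7.37 and -7.12 in Ly+Imatinib lungs. Over slides 5 and 6 its levels ran from -5.23 to -3.94, and over slides 1 to 4 from -7.78 to -7.02. Cep20, a centrosome protein, behaved alike, with -5.28 to -4.70 on slides 5 and 6 and -8.05 to -7.32 on slides 1 to 4. The other pattern, 12 irradiated arrays apart from 12 unirradiated ones, held for 0.392% of tested genes in the higher and 0.23% in the lower direction. It held for 48 (9.92%) of the genes that rose and 17 (7.83%) of those that fell. This pattern requires the same separation, so its shares of all tested genes are no fair background either. Among the 44 list genes called, 7 had this pattern (15.9%) and 4 the slide pattern (9.09%). Chac1, Smad4 and Spry4 were among those with the slide pattern. Chac1 ran from -1.02 to -0.24 on slides 5 and 6, and its lowest level on slides 1 to 4 was -0.18. Smad4 was at most 3.04 on slides 5 and 6 and at least 3.11 on slides 1 to 4. Spry4 was at least -3.34 on slides 5 and 6 and at most -3.67 on slides 1 to 4. Gdf15 ran from -0.51 to 1.68 over irradiated arrays and from -1.93 to -0.67 over unirradiated ones. Psrc1 ran from -0.85 to 1.28 over irradiated arrays and from -1.90 to -0.98 over unirradiated ones, and Cthrc1 from -1.94 to -1.42 over irradiated and from -3.51 to -2.04 over unirradiated ones.

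**Figure D5:**
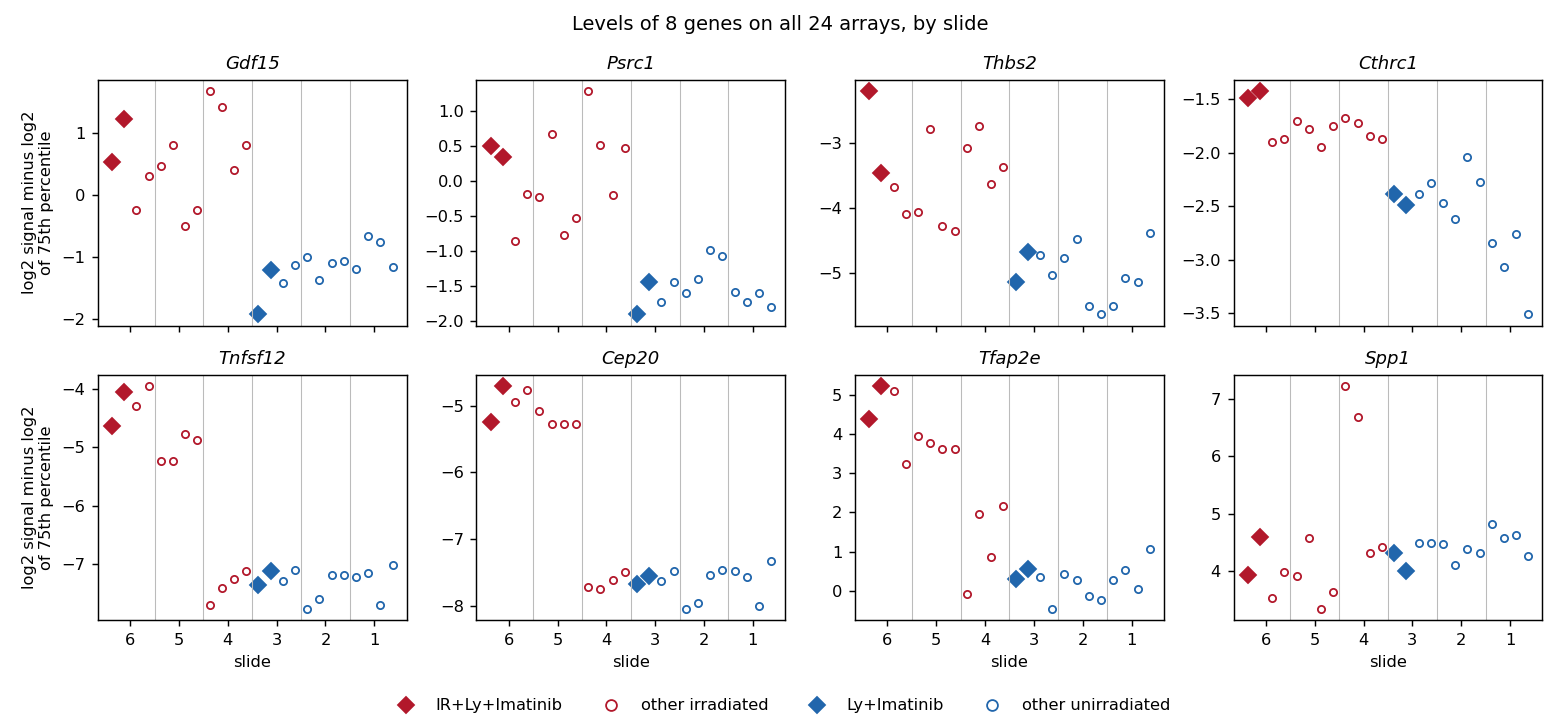
Level (log2 signal minus log2 of the array's 75th percentile, y axis) of 8 genes on all 24 arrays, grouped by slide (x axis, 4 arrays each); diamonds are IR+Ly+Imatinib (red, slide 6) and Ly+Imatinib (blue, slide 3), circles the other irradiated (red) and unirradiated (blue) arrays. Gdf15, Psrc1, Thbs2 and Cthrc1 are higher on slides 4, 5 and 6 than on slides 1, 2 and 3, Tnfsf12, Cep20 and Tfap2e are higher on slides 5 and 6 than on slides 1 to 4, and Spp1 is high on the 2 IR arrays of slide 4 only.

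The next question was whether the irradiation difference under both drugs differed from that in other arms. In the arm without drug, the 2 IR arrays were the least alike pair of the series. They correlated at 0.973, and 3311 genes were apart by more than 1 log2 unit. Against the arm without drug, 28 genes had a higher difference under Ly+Imatinib (0.137% of those tested) and 4 a lower one (0.0196%), while 3088 had an unadjusted p under 0.05. Spp1 was among the lower ones. In the Ly+Imatinib arm its irradiation difference was 0.10, and in the arm without drug it was 2.26, with levels of 7.23 and 6.68 in IR lungs, against 4.81 and 4.58 in untreated lungs. Both IR arrays stood above every other array of the series. The difference between the arms was -2.17 ± 0.38 (adjusted p = 0.0432), and it ran from -2.50 to -1.83 with each of the 8 arrays left out. The call was lost without any 1 of 6 of them, both untreated, both Ly+Imatinib, IR 1 and IR+Ly+Imatinib 1, with the adjusted p reaching 0.169. Mmp12 and Trem2, macrophage genes named above, followed the same order without passing. Mmp12 had an irradiation difference of 1.71 under Ly+Imatinib and 4.03 without drug (adjusted p = 0.167), and Trem2 had 1.40 and 2.79 (adjusted p = 0.281). Csf1r did not rise without drug, with levels of 1.85 and 2.04 in IR lungs, against 1.98 and 2.29 in untreated lungs. For Gdf15 the arms differed by -0.04 ± 0.42 (adjusted p = 0.966), and for Col1a1 by -0.07 ± 0.55 (adjusted p = 0.955). A difference that misses the threshold does not show that the arms responded alike.

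Against the Imatinib arm, 1 gene had a higher difference (0.0049%) and 14 a lower one (0.0686%). Against the Ly+Su arm, whose arrays lay on the same 2 slides, none was higher (0%) and 1 was lower (0.0049%), Rab27a, a GTPase of vesicle secretion. In the Ly+Imatinib arm Rab27a had levels of 1.17 and 0.74 in IR+Ly+Imatinib lungs, against 0.55 and 0.64 in Ly+Imatinib lungs. In the Ly+Su arm it had 0.50 and 0.63 in IR+Ly+Su lungs, against -1.86 and -1.91 in Ly+Su lungs, which with the 2 Su arrays (-1.46 and -1.48) were the lowest of the series. The arms differed by -2.08 ± 0.26 (adjusted p = 0.0238), a call lost without either Ly+Imatinib array, either Ly+Su array or IR+Ly+Su 2 (adjusted p up to 0.103). At an unadjusted p under 0.05 there were 856 genes against the Imatinib arm and 724 against the Ly+Su arm.

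List medians of the irradiation difference are given side by side. Those without drug rest on the 2 IR arrays, which differed widely in some members, as in Mki67, at 1.38 and -0.29. For proliferation genes the median was 1.11 under Ly+Imatinib, 0.83 without drug, 0.49 under Imatinib and 0.48 under Ly+Su. For collagens it was 0.62 under Ly+Imatinib, 0.86 without drug, 0.56 under Imatinib and 0.31 under Ly+Su. For inflammatory cytokines and chemokines it was 0.84 under Ly+Imatinib, 1.92 without drug, 0.44 under Imatinib and 0.09 under Ly+Su. For macrophage and monocyte genes it was 0.31 under Ly+Imatinib, 1.29 without drug, 0.31 under Imatinib and 0.20 under Ly+Su. Mast cell genes had the widest spread, with 0.96 under Ly+Imatinib, 3.38 without drug, 1.34 under Imatinib and 0.79 under Ly+Su. Among the genes of all lists, Spp1 was the only one whose difference between the Ly+Imatinib arm and any of these 3 arms passed the threshold.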

How the data were processed

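Total RNA of mouse lung was labelled with Cy3 and hybridised to 1-colour Agilent arrays, 24 in all, 2 biological replicates for each of 12 groups per the labels. The deposited values are spot intensity from the scanner software Feature Extraction 9.1.3.1, background-corrected by the authors' scanner software, per the file headers. How mice, doses and drugs were handled beyond the labels is not given in the sources used here. First, 1639 control spots and spots marked as outliers were left out, and the intensities of a probe's remaining spots were averaged. The log2 of this average was set against the log2 of the 75th percentile of the array's spots. Of 41174 probes, the 40555 with a value on every array were kept. 1 probe stood for each gene, the one with the highest mean level over the 24 arrays. RefSeq's table named 22951 probes by accession, 6659 by symbol and 3109 by synonym, and 8455 kept the name in the files. The limma package, version 3.58.1 under R 4.3.3, gave each difference from 1 fit over 12 groups (12 residual degrees of freedom), with Benjamini-Hochberg adjusted p-values over all tested genes and a threshold of 0.05; differences between arms are interaction terms of that fit. Arrays hold no read depth; their number, 2 a group, limits the precision. Alternatives covered scaling, background, filters, weights, the samples fitted, the replicate block and each array left out.

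The comparison, its members and the gene lists were chosen with earlier results of these data known. Genes named by rule are the 12 highest and 12 lowest, up to 4 members of each list that passed, 18 genes of injury, fibrosis and drug targets, the 5 highest and 5 lowest in each difference between arms (the 5 smallest p where fewer passed), and the 5 with the largest gap between the irradiated arrays. Results for some genes that the rule names are not reported here. Further list members were chosen after their values were seen.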

Additional observations from a re-analysis of the deposited data

Results flagged for a closer look

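In 14 cases, the irradiation difference under Ly+Imatinib and that in another arm differed by the interaction test. Each value is the log2 difference under Ly+Imatinib minus that in the other arm, with its SE and the adjusted p from limma. Where a gene is at background in a group, the value is fitted and is no bound.

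Against the arm without drug, Cep20 (2.85 ± 0.27, adjusted p = 0.000519) and Tnfsf12 (3.28 ± 0.31, adjusted p = 0.000519) kept their call with any 1 of the 8 arrays left out. In the Ly+Imatinib arm both were at background in unirradiated lungs, and in the arm without drug their levels lay between -7.75 and -7.15 on all 4 arrays. Mc4r, the melanocortin 4 receptor (3.81 ± 0.50, adjusted p = 0.00639), also kept its call, with levels of -4.97 and -4.59 in IR+Ly+Imatinib lungs, against -7.31 and -6.69 in Ly+Imatinib lungs, and of -6.40 and -4.97 in IR lungs, against -4.11 and -4.07 in untreated lungs. Slc45a1, a sugar transporter whose only probe lies in the edge region of IR+Ly+Imatinib 1 (2.64 ± 0.39, adjusted p = 0.0126), lost its call without either Ly+Imatinib array. Apon (5.45 ± 0.97, adjusted p = 0.0432) and Spp1 (-2.17 ± 0.38, adjusted p = 0.0432) lost theirs without any 1 of 6 arrays, and Ddx3y (-4.31 ± 0.78, adjusted p = 0.0470) without any 1 of 5. The signal of Ddx3y was dim on every array and, as above, is not taken as expression of a Y-linked gene.

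Against the Imatinib arm, Spertl (-4.71 ± 0.45, adjusted p = 0.000482) and 3830417A13Rik (-5.14 ± 0.60, adjusted p = 0.00235) passed with any 1 array left out as well. Both, with Olfr1012 (-3.89 ± 0.55, adjusted p = 0.0132), were at background on all 4 arrays of the Ly+Imatinib arm, and the signal lay on the IR+Imatinib arrays. Their values are thus fitted against background, not measured in the Ly+Imatinib arm, whose own differences of -0.92 for Spertl, -1.08 for 3830417A13Rik and -0.90 for Olfr1012 lie among signals at background and enter them. Spertl had levels of -3.88 and -4.38 in IR+Imatinib lungs, against -8.01 and -7.83 in Imatinib lungs. Olfr1012 lost its call without either Imatinib array, Ly+Imatinib 1 or IR+Imatinib 2. Cldn22, a claudin (3.49 ± 0.50, adjusted p = 0.0132), lost its call without Ly+Imatinib 1 or IR+Imatinib 2. Ddx3y (-5.07 ± 0.78, adjusted p = 0.0240) lost its call without Imatinib 2 or Ly+Imatinib 1, and Tlx2, a homeobox gene (-2.62 ± 0.36, adjusted p = 0.0123), without Ly+Imatinib 1.

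Against the Ly+Su arm the case was Rab27a (-2.08 ± 0.26, adjusted p = 0.0238), which lost its call without any 1 of 5 arrays. The Ly+Su arm shares both slides with the Ly+Imatinib arm. Against the other 2 arms, slide and irradiation cannot be told apart.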

How the results depend on the processing

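With all arrays, 701 genes passed for irradiation under Ly+Imatinib, 32 for the difference from the arm without drug, 15 for that from the Imatinib arm and 1 for that from the Ly+Su arm. The first count was 407 with no filter on background, 367 with normexp background correction (local background capped, chosen after seeing the data) and 2016 with array quality weights. In fits on only the groups of each comparison it was 0, as were the other 3 counts, with 4068, 1358, 993 and 1388 genes at an unadjusted p under 0.05 by limma. The difference from no drug gave 51 genes with a common floor, 6 with genes well above background on all 24 arrays, 6 with weights and 19 with a trended, robust variance prior. The difference from Imatinib gave 31 with the floor, and 0 both on all 24 arrays (358 at an unadjusted p under 0.05) and with normexp (711). The difference from Ly+Su gave 5 with quantile normalization, 17 with the floor, 14 with weights, and 2 with no filter, on all 24 arrays, with the trended prior and without the edge region (the last chosen after seeing the data). Scaling moved splits: 558 higher and 480 lower with the floor, beside 484 and 217, for irradiation, 37 and 14 with the floor and 25 and 9 with quantile normalization, beside 28 and 4, for the difference from no drug, and 12 and 19 with the floor and 2 and 8 with quantile normalization, beside 1 and 14, for that from Imatinib. Under normexp the median of all genes in the difference from no drug was 0.13, beside -0.02. The cause was not tested, except that fits on fewer samples hold fewer degrees of freedom.

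With 1 array left out, counts ran from 81 to 1242 for irradiation, from 13 to 5428 for the difference from no drug (5428 without IR 2, 419 without IR+Ly+Imatinib 2, 64 without untreated 1, 15 without Ly+Imatinib 2 and 13 without Ly+Imatinib 1), from 7 to 314 for that from Imatinib (314 without IR+Ly+Imatinib 2, 129 without IR+Imatinib 1, 24 without Ly+Imatinib 2 and 7 without Ly+Imatinib 1) and from 0 to 297 for that from Ly+Su (297 without IR+Ly+Imatinib 2, 10 without IR+Ly+Imatinib 1, 3 without IR+Ly+Su 1). The difference reversed for Qrich2 (0.00 with the floor), A930019D19Rik (-1.57 without IR+Ly+Imatinib 1, 7.12 without IR+Ly+Imatinib 2), and Lrrc15 (-0.01) and Pdgfb (0.69) without the edge region. Of 69 named genes called, 0 kept their call under every alternative, since the fit on only the compared groups called none.

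With the replicate number as a block, 689, 32, 13 and 2 genes passed, so that the last count doubled. The numbers were not taken as pairs: over 66 pairs of groups, same-numbered arrays' deviations correlated at a median of 0.036 (-0.202 to 0.25), and at -0.035 for IR+Ly+Imatinib and Ly+Imatinib. Slide as a random block was not run, since each group lies on 1 slide and the design already holds it, nor was normexp without a cap, which single spots with a bright local background made void. Signal over background limits dim genes: 98 of the 484 genes that rose had only a bound in Ly+Imatinib lungs.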
